A study of Mus musculus with 51 samples.

Results

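The hindlimb bud of the mouse embryo was compared between E11.5 and E12.5, on the 10 arrays whose titles name hindlimb at one of these stages, out of 51 arrays in the series. Both groups held 5 arrays. Each array carried total RNA from the hindlimb buds of 1 wild-type FVB embryo, with E0.5 set at noon of the day of the vaginal plug and no transgene or treatment in either group. The embryos of a stage came from 1 litter, so stage and litter cannot be told apart. The p-values measure the spread between littermates, pooled over all 14 groups of tissue and stage in the series. The whole appendage was cut from the trunk, and mesenchyme, ectoderm, migrating muscle precursors, vessels and blood were measured together. In such bulk tissue, fewer cells of a type and less RNA per cell cannot be told apart. The comparison asks which transcripts were up-regulated or down-regulated over the day in which the hindlimb passed from an outgrowing bud to a paddle with cartilage condensations.

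A limb bud grows under 2 linked signalling centres, the apical ectodermal ridge, which secretes FGFs, and the posterior zone of polarizing activity, which secretes Sonic hedgehog. The BMP antagonist Gremlin 1 relays between them. As growth slows, mesenchymal cells condense and become chondrocytes that lay down a collagen and aggrecan matrix, joints form as interruptions of these rods, and cells that migrated from the somites fuse into muscle fibres. Blood in the limb at this age carries primitive red cells from the yolk sac, which mature while they circulate.

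Values are log2 of the deposited RMA intensity, with the probe sets of a gene averaged. A gene was called where it changed at least 2-fold at a Benjamini-Hochberg adjusted p under 0.001 in limma, over 18194 genes. Of these, 106 were up-regulated and 44 down-regulated at E12.5, together 0.824% of all genes tested, or 0.583% up and 0.242% down. By the adjusted p alone 469 genes were higher (2.58%) and 496 lower (2.73%). The 5 arrays of one stage did not overlap the 5 of the other for 20.5% of all genes, and for 132 of the 150 called genes. The changes ran from a log2 fold change of -3.52 to one of 2.85, with a median of -0.01 over all genes.

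The limb type named in the titles held on all 10 arrays. Tbx4, the hindlimb T-box factor, read 9.49 to 10.25 on them, and Pitx1, the homeobox gene of hindlimb identity, read 10.42 to 10.87. Tbx5, its forelimb counterpart, read 5.37 to 6.27, against 9.40 ± 0.67 (SD, n = 4) in E11.5 forelimb. The array titled hindlimb E11.5 replicate 5 carries other labels that name E12.5 forelimb, but its Tbx4, Pitx1 and Tbx5 values of 10.05, 10.65 and 5.75 lay with those of the hindlimb arrays. These genes mark limb type and do not check the stage. An array titled forelimb E12.5 replicate 5 carries labels of E12.5 hindlimb, with Tbx4, Pitx1 and Tbx5 at 6.77, 5.52 and 9.77 beside 6.82 to 7.10, 5.02 to 5.60 and 9.67 to 9.75 on the other 4 E12.5 forelimb arrays. Titles were used for both. The forelimb array bears on the comparison with forelimb and on the placement of arrays along the forelimb step. As all groups were fitted together, it also bears on the spread used for the hindlimb step. Without the hindlimb array there were 103 rises and 47 falls, 140 of them among the 150.

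One E12.5 array, replicate 1, stood apart. Each hindlimb array was placed along the forelimb step by the 139 genes called between E11.5 and E12.5 forelimb, with 0 at the E11.5 and 1 at the E12.5 forelimb mean. The E11.5 hindlimbs lay between -0.49 and -0.25, among them replicate 5, the array with labels of E12.5 forelimb, at -0.35. E12.5 replicates 2 to 5 lay between 0.45 and 0.53, and replicate 1 at 0.07. The E12.5 forelimb array numbered 1 was also the lowest of its group, at 0.70 beside 0.97 to 1.15. Among the 150 called genes, replicate 1 was the E12.5 array closest to the E11.5 mean for 145, and the median gene reached 54.7% of the change seen in the other 4 arrays. For Gapdh, the log2 signal at the 3′ end less that at the 5′ end, a measure of RNA integrity, was -0.02 on replicate 1, -0.10 to -0.02 over the E12.5 arrays and -0.06 to 0.04 over the E11.5 arrays. Without replicate 1 there were 128 rises and 56 falls, among them all 150 genes. The E11.5 arrays differed too, since replicates 1 and 2 read higher than the other 3 in contractile muscle genes.

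**Figure D1:**
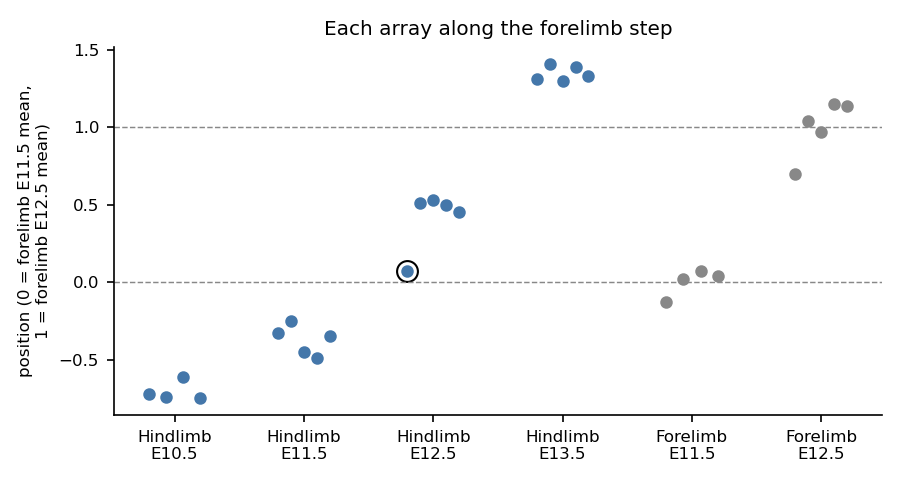
Position of each array along the forelimb step, as the mean over 139 genes called between E11.5 and E12.5 forelimb (y axis, no unit, 0 and 1 are the forelimb means, dashed), by group (x axis). Each point is 1 array, blue for hindlimb and grey for forelimb, and the circled E12.5 hindlimb replicate 1 at 0.07 lies below the other 4 at 0.45 to 0.53.

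Shh, Fgf8 and Grem1 were down-regulated over this day, while most other members of the signalling lists were not called. Shh, the posterior signal, read 6.82, 6.53, 6.27, 6.78 and 6.13 on the E11.5 arrays and 4.88, 4.59, 4.53, 4.66 and 4.65 on the E12.5 arrays. The groups lay more than 1 log2 unit apart, and Shh was 3.60-fold lower (log2 fold change -1.85, SE 0.15, adjusted p = 2.30e-12). Its 2 probe sets fell by different amounts, with log2 fold changes of -2.61 and -1.08.

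Fgf8, the main FGF of the ridge, read 8.05, 7.74, 7.56, 7.51 and 7.40 at E11.5 and 6.43, 5.88, 5.55, 5.51 and 5.63 at E12.5, without overlap. It was 3.62-fold lower (-1.85, SE 0.23, adjusted p = 5.52e-08). Of the 13 ridge genes measured Fgf8 was the only one called, although Sp8, a zinc finger factor of the ridge, and Rspo2, a WNT agonist, passed the adjusted p with changes of -0.93 and -0.53. Fgf4, a second FGF of the ridge, read at most 4.05 on any of the 10 arrays.

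Grem1, the BMP antagonist, read 9.08, 8.97, 8.80, 8.80 and 8.39 at E11.5 and 7.81, 6.58, 7.30, 7.26 and 7.40 at E12.5. The groups did not overlap, and Grem1 was 2.91-fold lower (-1.54, SE 0.27, adjusted p = 3.94e-05). The BMP list had a median of 0.21 over 19 genes, and Grem1 alone was called. Bmp4, a ligand of mesenchyme and ridge, changed by -0.65, Bmp2, a ligand, by 0.95 and Nbl1, a BMP antagonist, by 0.67, all past the adjusted p but under 2-fold.

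In the hedgehog list 1 of 11 genes was up-regulated and 1, Shh, down-regulated, with a median of 0.09. Ihh, the ligand made by maturing chondrocytes, read 4.03, 4.41, 4.44, 4.46 and 3.98 at E11.5 and 4.85, 5.41, 5.62, 5.32 and 5.39 at E12.5. It rose 2.08-fold (1.05, SE 0.17, adjusted p = 1.26e-05), close to the fold threshold, and its change fell under 2-fold without E12.5 replicate 3, E11.5 replicate 1 or E11.5 replicate 5, with log2 values of 0.98 to 0.99. The readouts of hedgehog signalling passed neither threshold, with -0.27 for Gli1, a target and transcription factor, and -0.08 for Ptch1, the receptor. The 95% intervals were -0.55 to 0.01 and -0.23 to 0.07.

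The WNT list of 17 genes held 1 rise and 1 fall. Dkk2, a secreted WNT modulator, rose by 1.23 (SE 0.19, adjusted p = 4.58e-06), from 7.25, 7.67, 7.67, 7.30 and 7.89 to 8.30, 8.41, 8.95, 9.14 and 9.12. Frzb, a secreted WNT antagonist of early cartilage, fell by 1.14 (SE 0.13, adjusted p = 8.59e-09), from 9.97, 9.91, 10.15, 10.12 and 10.13 to 9.61, 8.81, 8.65, 8.66 and 8.81. For both genes the arrays of the 2 stages did not overlap, and for Frzb replicate 1 lay nearest to E11.5. Among 12 genes of FGF receptors and feedback none was called, although Dusp6, a phosphatase induced by FGF signalling, passed the adjusted p at -0.51, as did Etv5 at -0.42 and Etv4 at -0.39, a pair of FGF-induced transcription factors. In the other direction Fgfr2, an FGF receptor, passed it at 0.42. In the 13 genes of the retinoic acid pathway none was called, and Aldh1a2, a retinoic acid synthesizing enzyme, changed most (0.80, adjusted p = 0.0497). By the adjusted p alone 1 of the 13 was higher and 0 lower.

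**Figure D2:**
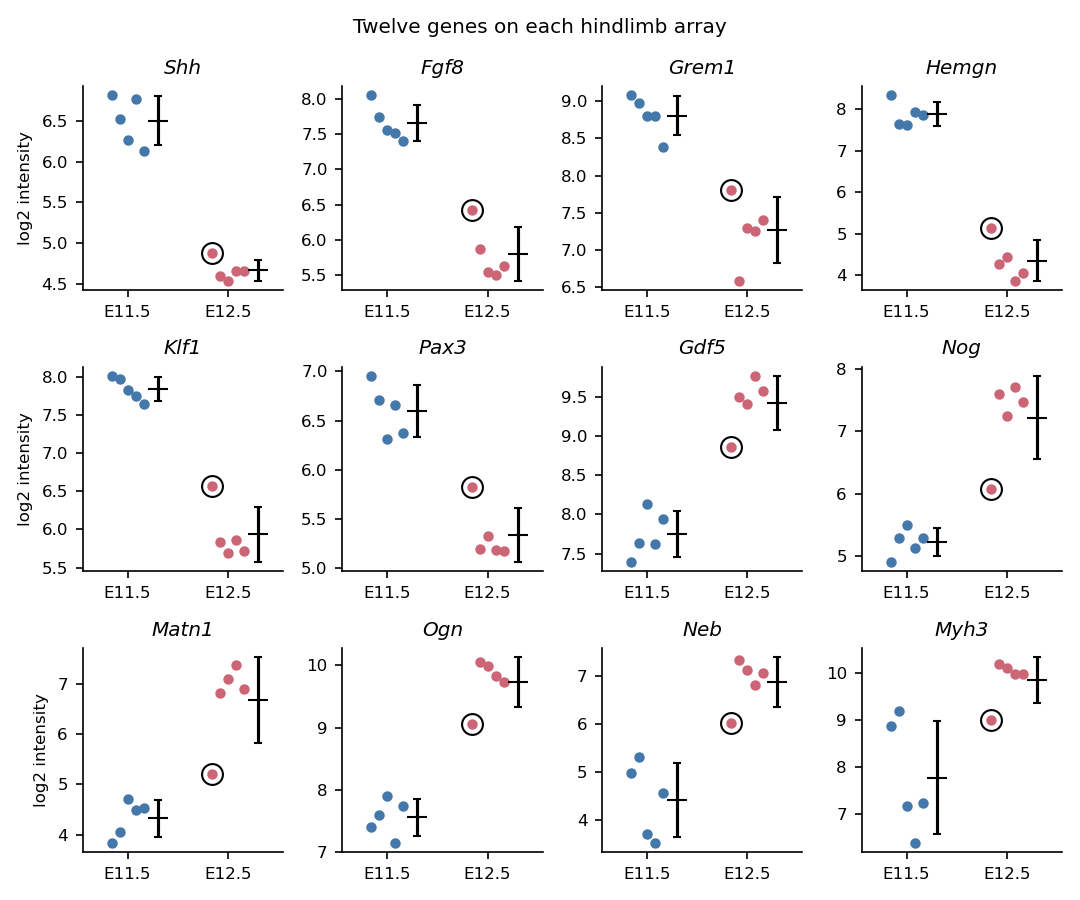
Log2 intensity (y axis) of 12 genes on each of the 5 E11.5 (blue) and 5 E12.5 (red) hindlimb arrays, with the mean and SD of each group as bars and E12.5 replicate 1 circled. The E12.5 values of Shh, Fgf8, Grem1, Hemgn, Klf1 and Pax3 lie below all E11.5 values, while in Myh3 replicate 1 lies below the highest E11.5 value of 9.19.

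The 3 largest falls of all were those of red cell genes. Of 11 erythroid genes measured, 7 were down-regulated and none up-regulated, with a median log2 fold change of -1.13 beside -0.01 over all genes. Hemgn, a nuclear protein of blood progenitors, fell most of all 18194 genes. It read 8.33, 7.63, 7.62, 7.94 and 7.85 at E11.5 and 5.13, 4.27, 4.45, 3.86 and 4.05 at E12.5, a log2 fold change of -3.52 (SE 0.25, adjusted p = 3.08e-13). Rhag, a red cell membrane ammonium transporter of the Rh complex, read 6.64, 6.69, 6.86, 6.72 and 6.79, and then 4.87, 4.67, 4.40, 4.02 and 4.22, a change of -2.30 (SE 0.22, adjusted p = 3.16e-10). Klf1, the erythroid transcription factor that activates adult beta globin, read 8.01, 7.98, 7.83, 7.75 and 7.64, and then 6.57, 5.83, 5.69, 5.86 and 5.72, a change of -1.91 (SE 0.20, adjusted p = 1.13e-09). In all 3 genes the stages lay apart, and replicate 1 was the highest of the E12.5 arrays.

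Of the 4 globins measured, 1 was called. Hbb-bh1, an embryonic beta-like globin, read 13.58, 13.47, 13.63, 13.37 and 13.47 at E11.5 and 12.34, 12.09, 11.63, 11.67 and 11.62 at E12.5 (-1.63, SE 0.14, adjusted p = 2.18e-11). Hba-x, the embryonic alpha-like globin, changed by -0.62 (adjusted p = 0.00348), under the threshold of fold and of p. Hbb-y, another embryonic beta-like globin, read 14.30 to 14.37 at E12.5 and 14.37 to 14.46 at E11.5, near the top of the intensity scale at 14.79 (-0.08, 95% interval -0.22 to 0.07). Hba-a1, an adult alpha globin, read 3.29 to 3.77 on all 10 arrays. Probe sets listed under several symbols were left out, so this reading need not cover all adult alpha globin RNA.

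The other called members were Slc4a1, the band 3 anion exchanger, at -1.28, Alas2, the first enzyme of heme synthesis in red cells, at -1.13, and Epb42, a membrane skeleton protein, at -1.13. Gata1, the erythroid master regulator, changed by -0.57 (adjusted p = 0.00271) and was not called. Among the 12 largest falls without overlap were also Car2, a carbonic anhydrase abundant in red cells (-1.62), and Trim10, a ring finger protein of erythroid maturation (-1.55). The list held 7 falls also without E12.5 replicate 1 and without E11.5 replicate 5. Among markers of other blood and vessel cells none of 17 macrophage genes and none of 14 endothelial genes was called, with medians of 0.09 and -0.07.

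Of the 7 called erythroid genes, 5 had a promoter in the RefSeq table (build GRCm38.p6). In the 250 bases before the start, the GATA motif AGATAA, searched on both strands, stood in 2 of these 5, Alas2 and Epb42, and in 8.79% of the 14453 tested genes with a promoter. The 2 promoters are shown because these called genes hold the letters, in capitals, here in the reverse form TTATCT. The letters are a description of these windows and not a binding site.
Alas2, chrX:150547167-150547416, plus strand: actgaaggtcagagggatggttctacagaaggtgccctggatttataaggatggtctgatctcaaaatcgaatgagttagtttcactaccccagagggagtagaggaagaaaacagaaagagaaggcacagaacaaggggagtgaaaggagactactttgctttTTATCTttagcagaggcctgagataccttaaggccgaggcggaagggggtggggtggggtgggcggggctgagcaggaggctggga
Epb42, chr2:121036878-121037127, minus strand: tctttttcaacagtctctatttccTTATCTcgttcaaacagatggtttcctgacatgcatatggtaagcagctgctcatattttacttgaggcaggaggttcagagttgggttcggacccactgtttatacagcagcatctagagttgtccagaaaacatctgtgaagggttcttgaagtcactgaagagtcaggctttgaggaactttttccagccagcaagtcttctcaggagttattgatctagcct

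The contractile genes of muscle rose. Of 24 genes measured, 13 were up-regulated and none down-regulated, with a median of 1.14. Neb, the giant thin filament protein nebulin, read 4.98, 5.31, 3.72, 3.52 and 4.56 at E11.5 and 6.02, 7.34, 7.13, 6.82 and 7.06 at E12.5, a 5.49-fold rise (2.46, SE 0.25, adjusted p = 9.98e-10). Tnnc1, the slow and cardiac troponin C, read 9.39, 9.63, 7.55, 6.75 and 7.90, and then 9.65 to 10.73 with a median of 10.54 (2.15, SE 0.39, adjusted p = 7.45e-05). Myl1, a fast myosin light chain, read 9.87, 9.98, 8.66, 7.89 and 8.69, and then 10.39, 11.40, 11.17, 11.21 and 11.14 (2.05, SE 0.36, adjusted p = 4.47e-05).

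The 2 stages barely separated in these genes. For Tnnc1 the highest E11.5 value of 9.63 lay next to the 9.65 of E12.5 replicate 1. Myh3, the embryonic myosin heavy chain, overlapped, with 8.88, 9.19, 7.17, 6.38 and 7.24 at E11.5 and 9.97 to 10.19 on E12.5 replicates 2 to 5, while replicate 1 lay between the 2 highest E11.5 values (2.08, SE 0.43, adjusted p = 4.40e-04). Over the whole list, the mean log2 level of the 24 genes was 6.05, 5.68 and 6.09 on E11.5 replicates 3, 4 and 5 and ran from 7.03 on E12.5 replicate 1 to 7.69 on replicate 2. E11.5 replicate 1 read 6.88 and replicate 2 lay between that value and 7.03, so that the E11.5 group spanned most of the distance to E12.5.

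The number of muscle calls depended on the arrays included, both in the 2 groups and in the estimate of the spread. With the spread taken from the 10 hindlimb arrays alone, 2 of the 24 genes were called. Without E11.5 replicate 3, 4 or 5 the count was 6, 6 and 7, and without E12.5 replicate 1 or E11.5 replicate 1 it was 13 and 14. Myh3 lost its call without any one of E12.5 replicates 2 to 5 and E11.5 replicates 3 to 5, and over all 18 settings its adjusted p ran from 4.60e-06 to 0.0190.

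The regulators of muscle precursors were mixed in direction, with a median of -0.11. Pax3, the paired box factor of migrating precursors, read 6.95, 6.71, 6.31, 6.66 and 6.37 at E11.5 and 5.82, 5.19, 5.33, 5.18 and 5.17 at E12.5, without overlap (-1.26, SE 0.14, adjusted p = 4.52e-09). Lbx1 and Met, a homeobox factor and a receptor needed for the migration of these cells, passed the adjusted p at -0.64 and -0.60. Msc, the basic helix-loop-helix factor musculin, passed it upward at 0.81 (adjusted p = 5.01e-07), under 2-fold. Myog, the factor of terminal muscle differentiation, changed by 1.17 (adjusted p = 0.0489), and Myod1 and Myf5, determination factors, by 0.41 and 0.00. Of 10 precursor genes Pax3 was thus the only one called.

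Of the 13 called muscle genes, 12 had a promoter in the table. The E-box CAGCTG, its own reverse complement, stood in the 250 bases before the start of 6 of them (Acta1, Chrna1, Myl1, Mylpf, Tnni1 and Tnnt2) and in 14.9% of the tested genes with a promoter. The other 6, Myh3, Myh8, Myl4, Tnnc1, Tnnt1 and Ttn, held none in this window. Mylpf, a fast myosin regulatory light chain, rose by 1.71, and Chrna1, the alpha subunit of the muscle acetylcholine receptor, by 1.12. Their promoters are shown for the distance of these letters, in capitals, from the start, 51 bases in Mylpf and 92 and 44 in Chrna1, counted to the first letter.
Mylpf, chr7:127211358-127211607, plus strand: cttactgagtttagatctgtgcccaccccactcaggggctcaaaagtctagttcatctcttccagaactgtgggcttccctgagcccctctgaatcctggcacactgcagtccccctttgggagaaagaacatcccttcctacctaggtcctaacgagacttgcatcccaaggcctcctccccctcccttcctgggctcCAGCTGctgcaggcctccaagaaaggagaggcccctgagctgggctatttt
Chrna1, chr2:73580339-73580588, minus strand: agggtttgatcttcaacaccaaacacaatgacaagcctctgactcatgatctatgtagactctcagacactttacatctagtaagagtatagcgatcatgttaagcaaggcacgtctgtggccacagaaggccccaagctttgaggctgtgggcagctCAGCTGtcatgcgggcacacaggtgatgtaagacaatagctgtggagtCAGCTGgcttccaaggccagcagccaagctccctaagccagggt

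Cartilage matrix genes rose, and their regulator Sox9 was not called. Of 25 cartilage genes, 10 were up-regulated and none down-regulated, with a median of 0.72, and 15 passed the adjusted p. Matn1, a cartilage matrix adaptor protein, read 3.83, 4.06, 4.71, 4.49 and 4.53 at E11.5 and 5.21, 6.82, 7.10, 7.38 and 6.91 at E12.5, a 5.13-fold rise (2.36, SE 0.28, adjusted p = 2.92e-08). Mia, a small protein secreted by chondrocytes, read 5.55, 6.10, 6.06, 5.61 and 5.74, and then 6.89, 8.59, 8.52, 8.42 and 8.08 (2.29, SE 0.19, adjusted p = 4.02e-12). Matn4, another matrilin, read 7.52, 8.20, 8.42, 7.89 and 8.37, and then 9.17 to 10.21 with a median of 10.04 (1.83, SE 0.21, adjusted p = 9.46e-09). All 3 separated the stages completely, with replicate 1 the lowest of the E12.5 arrays.

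Scrg1, a small secreted protein of chondrogenesis, rose by 1.72 (SE 0.18, adjusted p = 2.66e-09), and Acan, the core proteoglycan aggrecan, by 1.37. Col9a3, Col9a2 and Col11a2, chains of the minor cartilage collagens, rose by 1.23, 1.17 and 1.01. Col2a1, the main cartilage collagen, changed by 0.72 (adjusted p = 0.00159), from 10.77 to 11.08 on the E11.5 arrays up to 11.16 to 11.81 on the E12.5 arrays. Sox9, the master regulator of chondrocytes, read 7.60 to 7.78 at E11.5 and 7.73 to 7.88 at E12.5, a difference of 0.10 with a 95% interval of -0.10 to 0.29. Without replicate 1 the list held 12 rises and without E11.5 replicate 5 it held 10.

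Among 11 genes of hypertrophic cartilage and bone, which mark later steps of the skeleton, none was called, although Col1a1, the main collagen of bone and fibrous tissue (0.93), Runx3 (0.85) and Mef2c (0.76), transcription factors of maturing chondrocytes, passed the adjusted p. Col10a1, the collagen of hypertrophic cartilage, changed by 0.23 and Mmp13, a collagenase of late chondrocytes, by -0.02.

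The joint list of 9 genes held 2 rises. Gdf5, the BMP family ligand that marks joint interzones, read 7.39, 7.64, 8.14, 7.62 and 7.94 at E11.5 and 8.86 on replicate 1 and 9.42 to 9.77 on the other 4 at E12.5 (1.68, SE 0.18, adjusted p = 3.53e-09). Nog, the BMP antagonist noggin of condensing cartilage, read 4.90, 5.29, 5.50, 5.12 and 5.28, and then 6.07, 7.60, 7.24, 7.71 and 7.47, a 4.00-fold rise (2.00, SE 0.18, adjusted p = 6.61e-11). For both genes every E12.5 array lay above every E11.5 array. So Nog rose while Grem1, another BMP antagonist named, fell. Nbl1, a further BMP antagonist named, was higher past the adjusted p but under 2-fold. Prg4, the lubricant of mature joints, changed by 0.08.

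Connective tissue genes rose as well. In the list of tendon and connective tissue 4 of 12 genes were up-regulated, with a median of 0.81, and in that of the fibrous matrix 6 of 17, with a median of 0.78. Neither list held a fall. Ogn, a small leucine-rich proteoglycan, read 7.40, 7.60, 7.90, 7.14 and 7.74 at E11.5 and 9.05, 10.05, 9.99, 9.83 and 9.73 at E12.5 (2.17, SE 0.16, adjusted p = 8.69e-13). Aspn, asporin of the same family, read 3.08, 3.14, 3.06, 3.09 and 3.01, near the floor of the scale, and then 3.59, 5.34, 5.20, 5.56 and 5.18 (1.90, SE 0.23, adjusted p = 2.92e-08). Replicate 1 thus stayed close to the E11.5 level of Aspn.

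The collagen VI chains Col6a1, Col6a2 and Col6a3 rose by 1.66, 1.40 and 1.29, Postn, a matricellular protein of fibrous tissue, by 1.62, and Lum and Kera, keratan sulfate proteoglycans, by 1.31 each. Thbs2, a thrombospondin, rose by 1.15. Scx, the transcription factor of tendon precursors, read 5.51 to 5.67 at E11.5 and 5.48 to 5.67 at E12.5, with a difference of 0.00 and a 95% interval of -0.19 to 0.19. The counts without replicate 1 were 4 and 7, and without E11.5 replicate 5 they were 4 and 6.

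**Figure D3:**
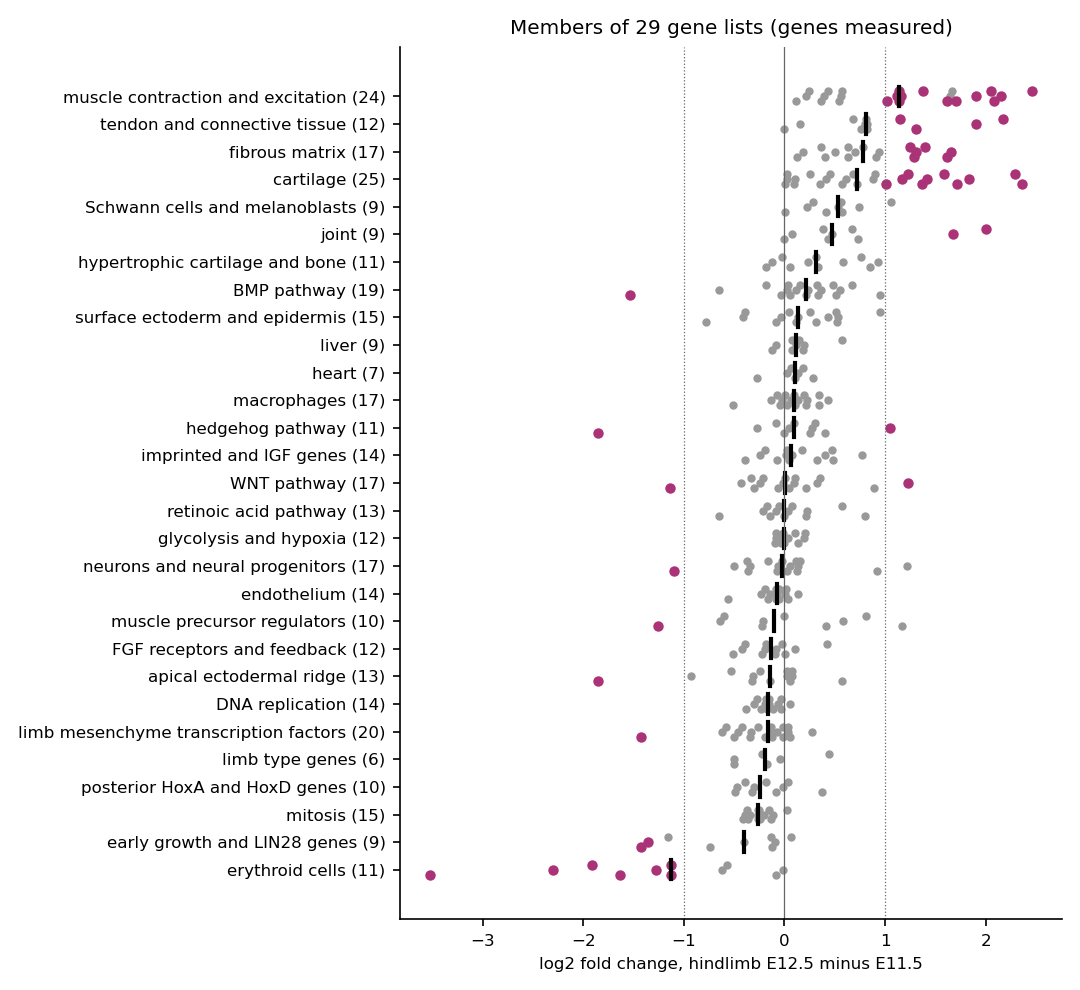
Log2 fold change between E11.5 and E12.5 hindlimb (x axis) of the measured members of 29 gene lists (y axis, number of genes in brackets), in purple where called and grey where not, with the median of each list as a black bar and dotted lines at 2-fold. The medians of the lists run from -1.13 for erythroid cells to 1.14 for muscle contraction and excitation.

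The largest rise of all was that of Egfl6, a secreted protein with EGF repeats, which read 6.04, 6.50, 6.29, 6.06 and 6.84 at E11.5 and, at E12.5, 8.23 on replicate 1 and 9.22 to 9.70 on the other 4. It was 7.22-fold higher (2.85, SE 0.21, adjusted p = 6.93e-13). Col8a2, a short-chain network collagen, rose by 2.31 (SE 0.20, adjusted p = 2.49e-11) from 4.66, 4.87, 4.95, 4.90 and 5.46 to 6.19, 7.43, 7.74, 7.67 and 7.34. Scin, an actin-severing protein, rose by 1.92 (SE 0.20, adjusted p = 2.05e-09). In none of the 3 did the stages overlap.

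Transcription factors of the limb mesenchyme changed little as a group, with a median of -0.17 over 20 genes and 1 call. Sall4, a zinc finger factor of pluripotent and early limb cells, read 6.98, 6.94, 7.11, 7.22 and 6.94 at E11.5 and 6.06, 5.53, 5.50, 5.34 and 5.60 at E12.5 (-1.43, SE 0.15, adjusted p = 9.98e-10). Sall4 stood also in the list of early growth genes, where 2 of 9 fell. The other was Trim71, a target of let-7 microRNAs, which read 7.26, 7.07, 6.86, 6.98 and 6.77, and then 6.19, 5.55, 5.31, 5.32 and 5.77 (-1.36, SE 0.16, adjusted p = 3.27e-08). Both genes separated the stages on all arrays. Lin28a, the inhibitor of let-7 maturation, changed by -1.16 (adjusted p = 0.00286), and Hmga2, an early growth gene, by -0.12.

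None of the 10 posterior HoxA and HoxD genes was called. Hoxd9 changed most (-0.49, adjusted p = 0.00367), Hoxd10 passed the adjusted p at -0.39, and Hoxd13, the gene of the most distal limb, changed by 0.37 (adjusted p = 0.0985). In the limb type list Tbx4 passed the adjusted p at -0.50 (adjusted p = 2.21e-04), under 2-fold, and Isl1, a LIM homeobox gene of early hindlimb, changed by -0.50 (adjusted p = 0.0796). Genes of mitosis had a median of -0.26 over 15 genes and those of DNA replication -0.16 over 14, with none called. By the adjusted p 2.73% of all genes were lower, and of the mitosis genes 4 passed it, all lower and under 2-fold. They were Kif20a (-0.39) and Kif11 (-0.34), mitotic kinesins, Ccnb2, a B-type cyclin (-0.36), and Cdk1, the mitotic cyclin-dependent kinase (-0.24). The arrays of the 2 stages did not overlap for 10 of the 15, beside 20.5% of all genes. Plk1, a mitotic kinase, changed most but with a larger error (-0.41, SE 0.15, adjusted p = 0.0444). Of the replication genes 1 passed, Rrm2, a subunit of ribonucleotide reductase, at -0.38 (adjusted p = 1.88e-04).

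Among the other cell types, 1 of 17 genes of neurons and neural progenitors was called. Stmn2, a microtubule regulator of growing axons, read 6.92, 7.17, 7.15, 7.05 and 7.14 at E11.5 and 6.67, 5.93, 5.78, 5.60 and 5.97 at E12.5 (-1.10, SE 0.20, adjusted p = 7.45e-05). The list had a median of -0.02. Sox2, a factor of neural progenitors, changed most, by 1.22 (adjusted p = 0.0912), and Nefm, a neurofilament chain, changed by 0.92 (adjusted p = 0.0384), while Tubb3, a neuronal tubulin, changed by -0.37 and Snap25, a synaptic protein, by -0.06, and none of these was called. None of 9 genes of Schwann cells and melanoblasts was called (median 0.53), where Dct, an enzyme of melanin synthesis, changed most (1.06, adjusted p = 0.00703). None of 15 ectodermal genes was called, where Krt15, a basal keratin, changed most (0.95, adjusted p = 3.80e-05). By the adjusted p alone 2 of the 9 were higher, and of the 15 ectodermal genes 3 were higher and 1 lower. Over all genes 2.58% were higher and 2.73% lower by this measure. Without E11.5 replicate 2 Dct was called at 1.48, and without E12.5 replicate 1 Krt15 was called at 1.07 and Col1a1 at 1.05.

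The remaining lists held no call. The largest changes were 0.77 for Igfbp3, an IGF binding protein, among 14 imprinted and IGF genes, 0.20 for Ndrg1, a hypoxia-induced gene, among 12 genes of glycolysis and hypoxia, -0.51 for Pf4, a platelet factor, among macrophage genes and -0.56 for Vwf, von Willebrand factor, among endothelial genes. Ttr, a plasma carrier, changed by 0.57 among 9 liver genes and Nkx2-5 by 0.28 among 7 heart genes. The mean level of the liver genes lay between 3.69 and 4.04 on the 10 arrays and that of the heart genes between 3.81 and 4.03, near the lowest log2 value in the file, 2.29.

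**Figure D4:**
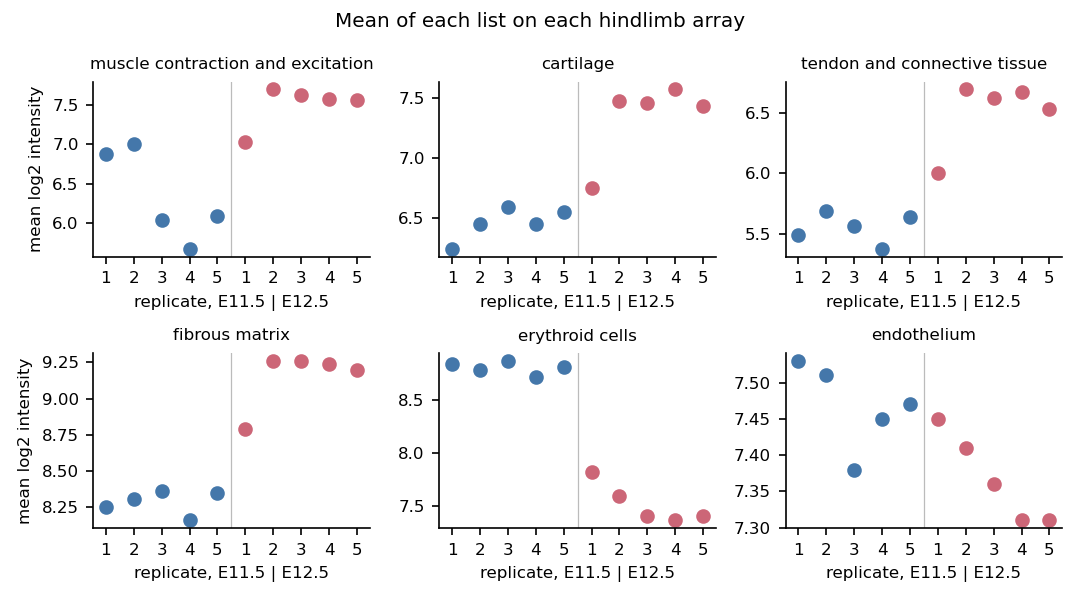
Mean log2 intensity (y axis) of 6 gene lists on each hindlimb array (x axis, replicates 1 to 5 of E11.5 in blue and of E12.5 in red; the y axes differ between panels). In the muscle panel E11.5 replicates 1 and 2, the first at 6.88, lie just under E12.5 replicate 1 at 7.03, while the 2 stages stand apart in the erythroid panel, at 8.72 to 8.87 and 7.36 to 7.82.

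The days before and after were set beside the step, with no test. Shh averaged 7.29 ± 0.43 (SD, n = 4) in E10.5 and 4.59 ± 0.22 (SD, n = 5) in E13.5 hindlimb, so its level at E12.5 was already that of E13.5. Fgf8 went from 9.51 ± 0.19 at E10.5 over 7.65 and 5.80 to 4.54 ± 0.27 at E13.5, and Sall4 from 8.73 ± 0.10 over 7.04 and 5.61 to 4.40 ± 0.16. Mia went from 4.45 ± 0.32 over 5.81 and 8.10 to 9.22 ± 0.10 and Neb from 3.03 ± 0.27 over 4.42 and 6.87 to 9.20 ± 0.19. Gdf5 read 4.52 ± 0.24 at E10.5 and 9.55 ± 0.09 at E13.5, near its E12.5 mean of 9.43, and Nog was higher at E12.5, at 7.22, than at E13.5, at 6.70 ± 0.23.

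Of the 4 hindlimb stages, E11.5 had the highest mean in several called genes. Those given here are examples, and Frzb and Stmn2 were among the others. Pmaip1, the pro-apoptotic BH3 protein Noxa, averaged 8.57 ± 1.14, 11.13, 9.59 and 7.30 ± 0.19 over the 4 stages, and its fall over the step was called (-1.54, SE 0.27, adjusted p = 4.58e-05). Evx1os, a transcript antisense to the homeobox gene Evx1, averaged 4.52 ± 0.28, 7.06, 5.58 and 4.46 ± 0.23 (-1.48, SE 0.21, adjusted p = 1.42e-06). The uncharacterized transcript E130114P18Rik averaged 5.80 ± 0.76, 6.74, 5.19 and 3.97 ± 0.22 (-1.55, SE 0.21, adjusted p = 3.96e-07).

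The same day in the forelimb was compared next. The study describes hindlimb development as delayed behind that of the forelimb. A comparison of the same day thus cannot tell limb type and this delay apart. Between E11.5 (4 arrays) and E12.5 (5 arrays) forelimb 109 genes rose (0.599%) and 30 fell (0.165%), together 0.764% of all genes. A limma test of the difference between the 2 steps called 4 genes, 0.0220% of all, and in each the hindlimb change was the lower. In the other direction no gene was called. This test treats the arrays of both limbs as independent. Both limbs of a stage came from the same litter and may share embryos, but whether a number marks an embryo is not given in the sources used here. Between same-numbered fore- and hindlimb arrays, deviations from the group means correlated at 0.347 for number 1 of E12.5 and between -0.11 and 0.158 for the other 8 pairs. With stage and number as a block none of the 4 genes was called, with adjusted p from 0.00159 to 0.0311 and differences of -1.45 to -1.71. At an unadjusted p under 0.05 the steps differed for 2241 genes, and at an adjusted p under 0.05 for 37.

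Shh was one of the 4. Its forelimb mean was 5.04 ± 0.38 (SD, n = 4) at E11.5 and 4.55 ± 0.16 (SD, n = 5) at E12.5, so the forelimb change of -0.50 was smaller than that of the hindlimb (difference -1.35, SE 0.21, adjusted p = 6.08e-04). At E11.5 the means of hindlimb and forelimb were 6.51 and 5.04, and at E12.5 they were 4.66 and 4.55. Hapln1, the link protein that ties aggrecan to hyaluronan, changed by 0.01 in hindlimb, with 6.51 to 6.75 at E11.5 and 6.11 to 7.09 at E12.5, but by 1.51 in forelimb (difference -1.50, SE 0.24, adjusted p = 6.08e-04). In hindlimb Hapln1 had stood at 8.24 ± 0.13 at E10.5 and rose to 8.73 ± 0.17 at E13.5.

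Sbspon, a secreted somatomedin B and thrombospondin domain protein, changed by 0.38 in hindlimb and 2.04 in forelimb (difference -1.66, SE 0.22, adjusted p = 6.60e-05). Serpinb7, a serine protease inhibitor, read 2.98 to 3.29 on all 10 hindlimb arrays, near the floor of the scale, and changed by 1.51 in forelimb (difference -1.49, SE 0.23, adjusted p = 6.08e-04). The 3 genes other than Shh thus changed by at most 0.38 in hindlimb over this day. In E13.5 hindlimb Sbspon averaged 6.47 ± 0.33 and Serpinb7 4.01 ± 0.27, above their E12.5 hindlimb means of 3.87 and 3.11.

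These 4 calls were fragile. With the spread taken from the 19 arrays of both limbs and stages, or from the 38 limb arrays from E10.5 on, none of the 18194 genes was called in either direction. With the 2 arrays of conflicting labels grouped by their characteristics none was called either, and the difference was -0.79 for Sbspon (adjusted p = 0.573), -0.89 for Serpinb7 (adjusted p = 0.332), -1.11 for Hapln1 (adjusted p = 0.143) and -1.85 for Shh (adjusted p = 0.00120). Without forelimb E12.5 replicate 5 Sbspon alone kept its call, at -1.63 (adjusted p = 2.84e-04). Sbspon was called in 21 of 27 other settings, Shh in 7 of 27, Serpinb7 in 7 of 27 and Hapln1 in 5 of 28, and while the sign of the difference was the same in all of them, its size ran from -1.89 to -0.79 for Sbspon, -1.74 to -0.89 for Serpinb7, -1.71 to -1.11 for Hapln1 and -1.85 to -1.21 for Shh. Grem1 had the largest difference of those past an adjusted p of 0.05, at -2.27 (SE 0.39, adjusted p = 0.00216), and was not called. Its forelimb values spread widely, at 7.27 ± 1.05 (SD, n = 4) at E11.5 and 8.00 ± 0.41 (SD, n = 5) at E12.5.

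For the tissue genes the 2 limbs were read side by side. Hemgn changed by -3.52 in hindlimb and -3.79 in forelimb (difference 0.27, SE 0.37, adjusted p = 0.828). Klf1 changed by -1.91 and -1.80, Matn1 by 2.36 and 2.17, and Frzb by -1.14 and -1.20. In the erythroid list 7 genes fell in each limb and in the cartilage list 10 rose in each. In the muscle list 13 were called in hindlimb and 4 in forelimb, a difference in counts that was not tested as such. The median log2 fold change of the muscle list was 1.14 in hindlimb and 0.96 in forelimb. Egfl6 rose by 2.85 in hindlimb and 1.50 in forelimb (difference 1.35, SE 0.31, adjusted p = 0.0436), and Neb by 2.46 against a forelimb change of 1.09 that was not called (difference 1.37, SE 0.36, adjusted p = 0.0916).

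**Figure D5:**
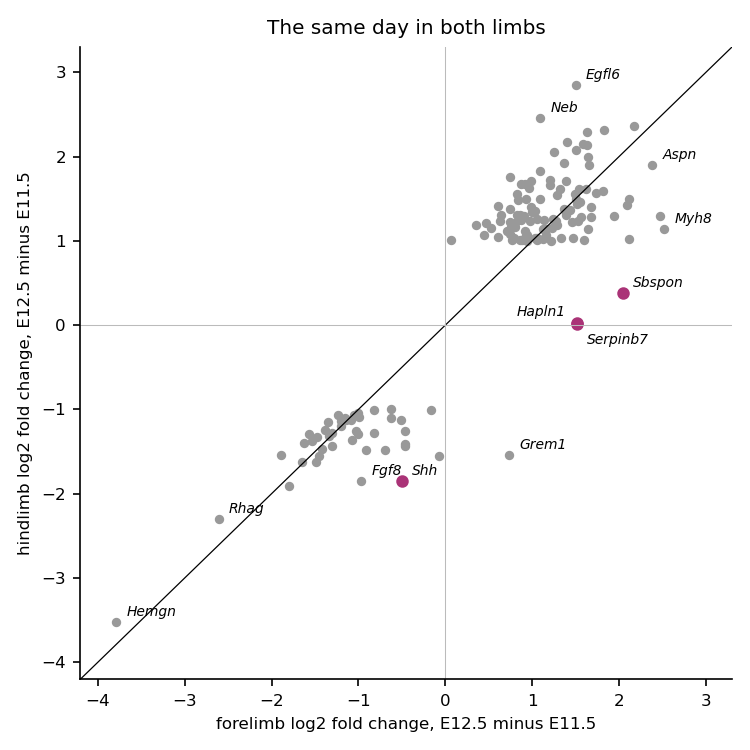
Log2 fold change from E11.5 to E12.5 in forelimb (x axis) and hindlimb (y axis) for the 150 genes called in hindlimb and the 3 further genes whose steps differed, with a line where both are equal. The 4 purple points (Shh, Hapln1, Sbspon and Serpinb7) are the genes whose difference was called and lie below the line, Shh at -0.50 and -1.85.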

How the data were processed

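Total RNA of 51 samples was labelled in 2 cycles and hybridized to Affymetrix whole-genome mouse arrays, 1 sample per array. The deposited intensities are linear RMA values that the authors made at default settings in R and Bioconductor, in a version that is not stated, with one blemished whole-embryo array corrected. Log2 was taken here. Of 45101 probe sets, 34958 carried exactly 1 gene symbol, and 932 with several and 9211 without an entry were left out. Their log2 values were averaged into 18194 genes, with symbols updated through the gene ID for 34754 probe sets. A hybridization array has no read depth, so the number of arrays limits the precision.

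All 14 groups, named by array title, were fitted together in limma 3.58.1 (R 4.3.3, 37 residual degrees of freedom), with the study's thresholds of 2-fold and an adjusted p of 0.001. Intervals are 95%. The fitting step was tested on simulated data. Replicate numbers did not pair the hindlimb samples of different litters, since same-numbered deviations correlated between -0.0102 and 0.173. The members, lists and rules were chosen with earlier results of these data known. Of 415 list genes in 30 lists, 395 were measured; the list of Y-linked genes and Xist held no call among 4. Named are the 12 largest rises and 12 largest falls without overlap, up to 4 called genes per list or the 1 of largest change, Tbx4, Pitx1 and Tbx5, and up to 4 genes per direction of the limb difference. Other genes named were chosen after their values were seen.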

Additional observations from a re-analysis of the deposited data

Results flagged for a closer look

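Within the groups of 5 arrays, the gap between the extreme array and the next, divided by the range of the group, passed Dixon's critical value of 0.71 in 21 of 122 tests of the named genes. Chance gives about 1 flag in 20 independent tests. The tests here share the same arrays, so 1 shifted array can raise many flags at once. E12.5 replicate 1 accounted for 19 of the 21. It was the lowest E12.5 array, with the ratio in brackets, in Aspn (0.809), Col6a1 (0.861), Col6a2 (0.779), Col8a2 (0.739), Igfbp3 (0.747), Krt15 (0.885), Matn1 (0.744), Matn4 (0.798), Myh3 (0.815), Myl1 (0.740), Nog (0.714), Scin (0.719), Scrg1 (0.735), Thbs2 (0.712), Tnnc1 (0.790). It was the highest in Frzb (0.833), Klf1 (0.799), Pax3 (0.744), Pmaip1 (0.773). Each of these 19 values lay on the side of the E11.5 arrays. The other 2 were E11.5 replicate 4, lowest in Krt15 at 6.95 beside 7.40 to 7.54 (0.753), and E12.5 replicate 2, lowest in Pitx1 at 10.42 beside 10.69 to 10.76 (0.798).

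The change over the day differed between hindlimb and forelimb by a test of the difference in Sbspon (-1.66), Hapln1 (-1.50), Serpinb7 (-1.49) and Shh (-1.35), each the hindlimb minus the forelimb log2 fold change in limma.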

How the results depend on the processing

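The 106 rises became 63 with the spread taken from the 10 hindlimb arrays alone, 62 of them shared with the 106. Over the other settings without a block the rises ran between 75 and 150, while the falls stayed between 30 and 56. Leaving out 1 array gave 84 to 128 rises, lowest without E11.5 replicate 4, and 42 to 56 falls, with both counts highest without E12.5 replicate 1. With the replicate number as a block on the 10 hindlimb arrays 21 rises and 23 falls were called, all 44 among the 150. Same-numbered samples deviated together in only some pairs, so the numbers do not pair the samples. With this block the lists held 6 erythroid falls and 0 muscle, 4 cartilage, 2 fibrous matrix and 1 tendon rises. The muscle count was also 2 on the 10 hindlimb arrays and 3 with groups taken from the characteristics, and 6 to 14 with 1 array left out. With 1 array left out the other lists held 9 to 12 cartilage, 6 to 7 fibrous matrix and 4 tendon rises and 7 erythroid falls.

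Of the 4 genes whose steps differed, 0 were left with the 38 limb arrays, the 19 arrays, groups from the characteristics, the probe set of highest mean, genes under the median left out, or stage and number as a block, the last added after seeing the data, as were the list counts under each setting. With array weights 9 were called, with quantile normalization 3 and with the replicate block on 19 arrays 1. Leaving out 1 array gave 1 to 5 lower and 0 to 1 higher in hindlimb. The count was 1 without hindlimb E12.5 replicate 2 or 3, hindlimb E11.5 replicate 1, 2 or 4, any of forelimb E12.5 replicates 2 to 5 or forelimb E11.5 replicate 3 or 4, and 2 without hindlimb E12.5 replicate 4 or 5, hindlimb E11.5 replicate 5 or forelimb E11.5 replicate 2.

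Of 40 named genes called, 15 kept the call in every setting, and 2, Ihh and Myh3, lost it without 1 array. None of these 40 changed sign in any setting. For genes called in neither the main fit nor the setting, a change of sign was not counted. The cause of these shifts was not tested.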

Other observations

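Outside the lists, further muscle genes were among the 106 rises. Actn2, the alpha-actinin of the sarcomere's Z disc, rose by 2.14 (adjusted p = 2.95e-07) although its arrays overlapped, with 4.40 to 7.12 at E11.5 and 7.09 to 8.48 at E12.5. Casq2, a calcium store protein, Myoz2 and Myot, Z disc proteins, and Unc45b, a myosin chaperone, rose by 1.50, 1.46, 1.40 and 1.34. Irx1, an Iroquois homeobox gene, rose by 1.76 (adjusted p = 4.76e-08) from 5.54 to 6.55 on the E11.5 arrays to 7.01 to 7.98 on the E12.5 arrays. Papss2, which makes the sulfate donor for proteoglycans, rose by 1.50, as the average of 4 probe sets with changes from 0.19 to 2.04.

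Outside the erythroid list the falls held further red cell surface proteins, Kel (-1.37), Rhd (-1.33), Icam4 (-1.40) and Ermap (-1.47), which carry blood group antigens in people, and Slc25a37, the mitochondrial iron importer of red cell precursors (-1.29). These genes were picked after their values were seen.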
